A study of Rattus norvegicus with 10 samples.

Results

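Cspg4 encodes NG2, a transmembrane chondroitin sulfate proteoglycan, and it is described here together with the genes of other proteoglycans of the cell surface and the matrix next to the cell. The genes were Cspg4, the syndecans Sdc1 to Sdc4, the glypicans Gpc1, Gpc3, Gpc4 and Gpc6, and Hspg2, matched to the gene symbols of the table without regard to case. Of these 10 symbols, 7 matched a row among the 10184 rows, and all 7 passed the filter on low values. Gpc3, Gpc6 and Hspg2 matched no row and were not analysed here. Of all rows, 813 carried no symbol and could not be matched, so a symbol without a row does not show that a gene was silent. Cspg4 was chosen by its own measured difference, a higher level in ARSL KO than in WT cells in the comparison described below, so its values are given as a description with no test. The other 6 were picked as relatives of NG2.

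The samples were RCS cells, which derive from a rat chondrosarcoma and lay down matrix of the cartilage kind. There were 5 libraries from cells with a knockout of ARSL (ARSL KO), which encodes arylsulfatase L, and 5 libraries from wild-type (WT) cells. Both groups were grown without treatment in DMEM with 10% fetal bovine serum, 2 mM L-glutamine and penicillin/streptomycin, and RNA was taken 48 h after seeding. The labels call the libraries of a group biological replicates but do not say whether they came from separate cultures, so p-values measure the spread between these libraries, which may be technical. The labels do not give the number of KO clones, so the effect of the knockout and a difference between lines of another origin cannot be told apart. Expression of the knocked-out gene itself was not analysed, which leaves the labels of genotype unchecked.

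Proteoglycans of the cell surface are core proteins that carry long sulfated sugar chains. Syndecans and NG2 cross the membrane, while glypicans are held to it by a lipid (GPI) anchor. Their heparan sulfate or chondroitin sulfate chains bind growth factors and matrix proteins and present them to signalling receptors, and in cartilage they form part of the layer through which chondrocytes sense their matrix. NG2 is best known from pericytes, oligodendrocyte precursors and melanoma cells, where it binds collagen VI and takes part in adhesion and spreading.

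The windows just before the start of Cspg4 and of Sdc4 are shown because these are the members with the largest differences once the libraries that stood apart are set aside. Both are RefSeq sequence of the GRCr8 assembly, 250 bases long and written 5′ to 3′ on the strand of the gene. Cspg4 lies on the plus strand (chr8:66160692-66160941) and Sdc4 on the minus strand (chr3:173592924-173593173). Capitals mark the GC box (GGGCGG), the kind of sequence that Sp1-type factors bind, and the CCAAT box (these 5 letters), each on either strand.
Cspg4: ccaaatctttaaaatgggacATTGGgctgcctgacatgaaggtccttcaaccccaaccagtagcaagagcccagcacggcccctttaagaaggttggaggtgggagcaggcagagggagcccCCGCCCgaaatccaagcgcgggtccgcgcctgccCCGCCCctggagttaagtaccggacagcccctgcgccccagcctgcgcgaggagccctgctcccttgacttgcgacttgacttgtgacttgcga
Sdc4: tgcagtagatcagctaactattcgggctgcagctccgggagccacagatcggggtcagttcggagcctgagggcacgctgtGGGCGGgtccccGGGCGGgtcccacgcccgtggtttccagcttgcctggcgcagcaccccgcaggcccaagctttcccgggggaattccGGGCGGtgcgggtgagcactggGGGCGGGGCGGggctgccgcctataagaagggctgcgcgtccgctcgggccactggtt
The Cspg4 window held 2 GC boxes and 1 CCAAT box, with 62% G and C. The Sdc4 window held 5 GC boxes, of which a pair overlap, and no CCAAT box, with 70% G and C. The median over all 33469 windows of this length was 51.2% G and C. The windows of Sdc1, Sdc3 and Gpc4 were also searched and held 3, 4 and 4 GC boxes. They held 1, 0 and 0 CCAAT boxes. A GC box was found in 30.5% of all windows and a CCAAT box in 34%. The TATA box (TATAAA), the AP-1 site (TGANTCA), the E-box (CACGTG) and the GATA site (AGATAA), on either strand, matched none of these 5 windows, against 12.9%, 6.34%, 5.59% and 10.3% of all windows.

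Library depth was 2065594 to 2591819 reads over the listed genes, recovered by inverting the scale of the table. WT 3 and WT 4 stood apart from the other libraries on the first principal component, which held 51.1% of the variance, with scores of 28 and 26.8. ARSL KO 4 scored 7.91 and the other 7 libraries -15 to -2.96. Results for the members are therefore given with all libraries and without these 3. As the 3 were picked from these same values, p-values without them are not independent of that choice. Of the 14 chondrocyte markers, 12 had a row and all 12 were tested, among them Col2a1 with 2174 to 3100 normalised reads (reads scaled by a size factor per library) in ARSL KO and 2246 to 3987 in WT. Sox9 and Snorc matched no row. Summed over the 12, the markers had 47900 to 64820 normalised reads in ARSL KO. In WT the sums were 90830 and 90660 in WT 3 and WT 4 and 51970 to 55630 in the other libraries. Their part in the results below was not tested.

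Cspg4 separated the genotypes completely. It had 233, 209.6, 139.4, 211.8 and 132.7 normalised reads in ARSL KO 1 to 5, and 14.82, 14.52, 12.04, 23.9 and 22.2 in WT 1 to 5. The lowest ARSL KO library was thus far above the highest WT library. Groups that do not overlap, in either direction, were found for 4.26% of the 8431 tested genes. Within ARSL KO, libraries 1, 2 and 4 lay together and above libraries 3 and 5. The means were 185.3 ± 45.9 in ARSL KO and 17.49 ± 5.22 in WT (SD, n = 5 each), a ratio of 10.6. These rest on 148 to 217 reads per ARSL KO library and 11 to 25 per WT library, so counting error is a large part of the WT spread. In bulk RNA, fewer cells that make a transcript and less transcript per cell cannot be told apart.

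On the deposited log2-like scale, which is compressed for weakly expressed genes, Cspg4 had a mean of 7.80 in ARSL KO and 5.67 in WT, a difference of 2.12. That was the highest difference of the 8431 tested genes, and the next highest was 1.39. WT 3 and WT 4, which moved together for all other members, held the lowest and the highest WT value of Cspg4. ARSL KO 4 lay within the range of the other ARSL KO libraries. Without WT 3, WT 4 and ARSL KO 4 the means were 178.7 and 17.18 normalised reads, a ratio of 10.4.

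**Figure D1:**
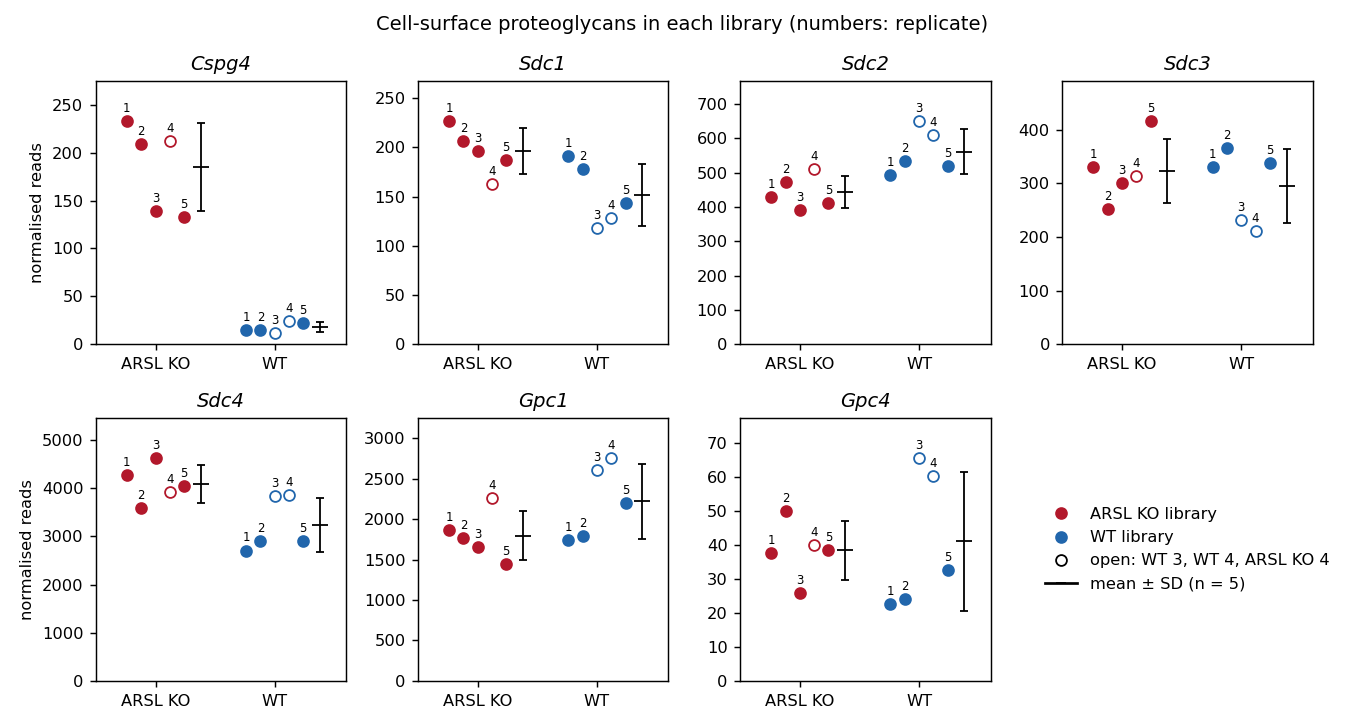
Normalised reads (vertical axis, linear from 0) of the 7 proteoglycan genes in each ARSL KO and WT library; numbers are replicates, open circles are WT 3, WT 4 and ARSL KO 4, and bars are mean ± SD (n = 5). Cspg4 is at 132.7 to 233 in ARSL KO and at 12.04 to 23.9 in WT, while the groups overlap for the other 6 genes.

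NG2 marks several cell types other than chondrocytes, and their markers were looked for. Of 9 pericyte and mural cell markers, Des, a muscle intermediate filament, was the 1 with a row. It was under the filter, with 1.79 to 14.6 normalised reads in ARSL KO and 7.65 to 15.3 in WT. Of 6 oligodendrocyte precursor markers, Pdgfra had a row, also under the filter, with 0.923 to 10.7 in ARSL KO and 0 to 10.9 in WT. The defining markers Pdgfrb, Rgs5, Olig2 and Sox10 matched no row, which does not show that they were silent, as Sox9 matched none either. Of 5 melanocyte markers, Mitf and Pmel were tested and did not pass (limma adjusted p = 0.231 and 0.436). Their summed level was 55.4 to 68.7 normalised reads in ARSL KO and 50.6 to 85.3 in WT. Of 6 fibroblast markers, Thy1 was tested and did not pass (limma adjusted p = 0.854), with 15.7 to 37.1 in ARSL KO and 12.2 to 38.3 in WT. For each of these lists the ranges of the 2 genotypes overlapped.

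The profiles nearest to that of Cspg4 over the 10 libraries were sought among 7887 tested genes with a symbol. Likeness was the root mean square distance between profiles on the log2-like scale, each taken relative to its WT mean. Cavin3, a caveola coat protein, was nearest at 0.672, followed by Armcx2 at 0.806, Cgref1 at 0.813, Ltbr, the lymphotoxin beta receptor, at 0.815, and Cybrd1, a ferric reductase, at 0.866. The median distance was 1.52, as was the distance of Cspg4 from a flat profile. Cavin3 had 317.2 to 373 normalised reads in ARSL KO and 51.29 to 197.9 in WT. Each of the 5 had ARSL KO values entirely above its WT values, where 4.26% of the 8431 tested genes had groups that do not overlap, in either direction. The 5 were picked for likeness to Cspg4, itself picked for its rise, so this follows largely from the choice. No gene could exceed the difference of Cspg4, the highest of all, and those of the 5 ran from 0.99 for Cybrd1 to 1.39 for Cavin3. Their order among ARSL KO libraries was not that of Cspg4: Cavin3 was highest in ARSL KO 3, in which Cspg4 was next to lowest.

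**Figure D2:**
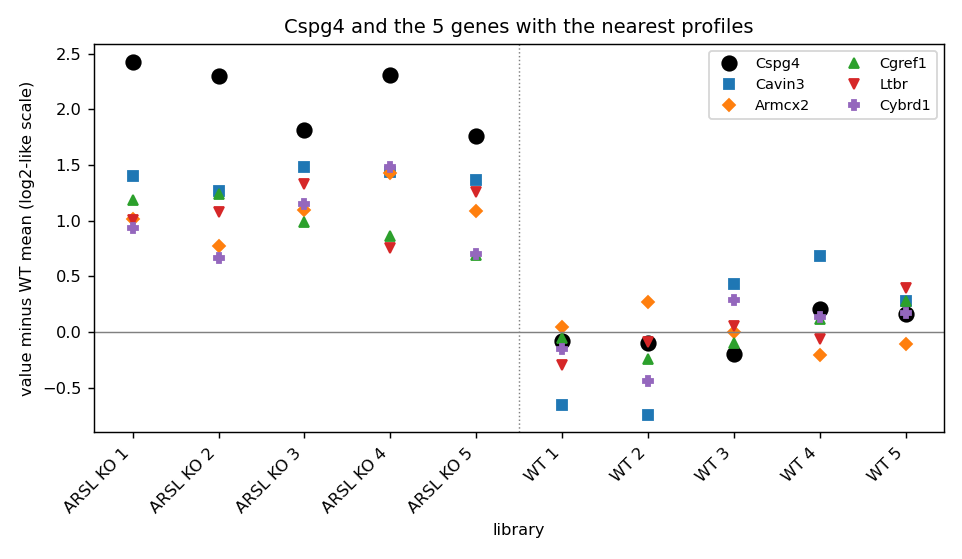
Values of Cspg4 and the 5 nearest genes in each library (horizontal axis), relative to each gene's WT mean on the log2-like scale (vertical axis). Cspg4 lies at 1.76 to 2.43 in ARSL KO libraries, above the 5 other genes in each of them, and at -0.193 to 0.21 in WT libraries.

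None of the other 6 members passed the test with all libraries (limma on the log2-like values, adjusted p under 0.05 over all tested genes), where 1.14% of the 8431 genes passed. At an unadjusted p under 0.05 there were 3 of 6, Sdc1, Sdc2 and Sdc4, against 13.5% of all genes, and limma-voom on the recovered reads called 0 of 6, against 0.949% of all genes. Their median difference was 0.06, against 0.01 over all genes, and 3 of 6 were positive, against 52.1% of all genes. For all 6 the values of the 2 genotypes overlapped.

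Sdc4 is the broadly expressed syndecan of focal adhesions. It had 4273, 3586, 4628, 3916 and 4053 normalised reads in ARSL KO 1 to 5, and 2706, 2903, 3828, 3849 and 2908 in WT 1 to 5. WT 3 and WT 4 lay inside the ARSL KO range, and the other WT libraries lay below every ARSL KO library. With all libraries the means were 4091 ± 390 in ARSL KO and 3239 ± 554 in WT (SD, n = 5 each). The difference was 0.34 (SE 0.122, unadjusted 95% interval 0.08 to 0.61), which did not pass (limma adjusted p = 0.22). Without WT 3, WT 4 and ARSL KO 4, Sdc4 rose by 0.53 (SE 0.0919, limma adjusted p = 0.000871), with means of 4135 in ARSL KO and 2839 in WT, 1.46-fold. It was then the 1 of these 6 members that passed, where 3.56% of all genes did.

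Sdc2 is a syndecan of mesenchymal cells. It had 429.4, 473.6, 392.4, 509.4 and 411.7 normalised reads in ARSL KO 1 to 5, and 494.2, 533.3, 649.9, 609 and 520.1 in WT 1 to 5. Only ARSL KO 4 reached the WT range, by exceeding WT 1, and WT 3 and WT 4 were the highest of all. The means were 443.3 ± 47.6 in ARSL KO and 561.3 ± 65.4 in WT (SD, n = 5 each). The difference of -0.31 (SE 0.101, unadjusted 95% interval -0.53 to -0.10) did not pass with all libraries (limma adjusted p = 0.179). Without the 3 libraries it was -0.25 and did not pass either (limma adjusted p = 0.117).

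Sdc4 and Sdc2 thus lay on opposite sides while both were high in WT 3 and WT 4. The ratio of Sdc4 to Sdc2 reads within a library, in which the size factor cancels, was 9.95, 7.57, 11.8, 7.69 and 9.85 in ARSL KO 1 to 5. In WT 1 to 5 it was 5.47, 5.44, 5.89, 6.32 and 5.59. The groups did not overlap, and WT 3 and WT 4 lay close to the other WT libraries. The means were 9.37 ± 1.77 in ARSL KO and 5.74 ± 0.367 in WT (SD, n = 5 each), 1.63-fold apart. The size of the ratio also depends on how many reads each transcript yields, so only its difference between libraries is described. Of the 15 ratios among the 6 members, 2 separated the genotypes, this one and that of Sdc4 to Gpc1. Over all pairs of the 8429 tested genes with a read in every library, 3.91% of ratios did. The 15 ratios share genes, and nothing is read from their count. They were looked at after the single values were known and were not tested.

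**Figure D3:**
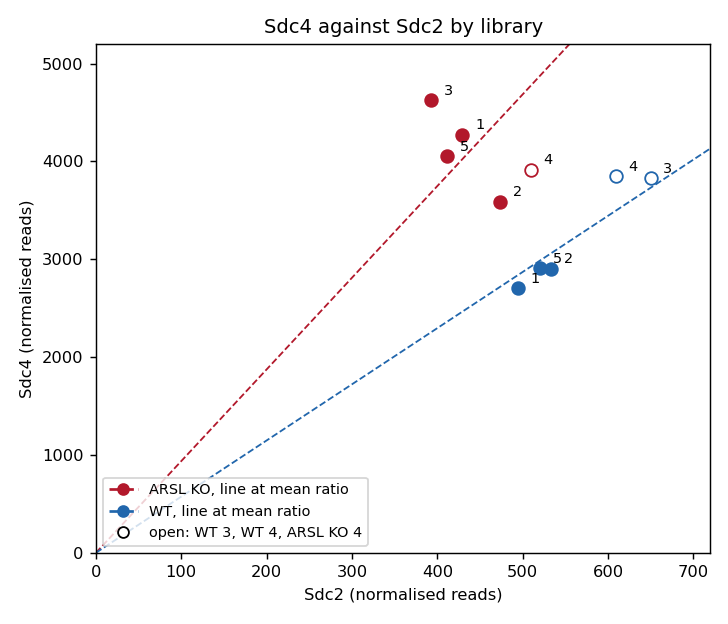
Sdc4 against Sdc2, both in normalised reads on linear axes from 0, with 1 point per library; dashed lines through the origin have the mean ratio of each genotype, 9.37 for ARSL KO and 5.74 for WT. The 5 WT points, WT 3 and WT 4 included, lie along the lower line, and the 5 ARSL KO points lie above it.

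Sdc1 and Sdc3 showed smaller separations between genotypes than between WT libraries. Sdc1, which in adults is mainly a syndecan of epithelia and plasma cells, had 226.5, 206.4, 196.6, 163 and 187.4 normalised reads in ARSL KO 1 to 5. In WT 1 to 5 it had 190.9, 178.1, 118.2, 128.1 and 143.8. ARSL KO 4 was the lowest ARSL KO library, and WT 3 and WT 4 were the lowest WT libraries. The difference was 0.31 (SE 0.12, unadjusted 95% interval 0.05 to 0.57, limma adjusted p = 0.259), and 0.22 without the 3 libraries (limma adjusted p = 0.304).

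Sdc3 is a syndecan of the nervous system that is also known from chick limb cartilage. It had 330.7, 252, 301, 314.2 and 416.1 normalised reads in ARSL KO 1 to 5, and 330.4, 365.8, 230.9, 211.3 and 338.3 in WT 1 to 5. WT 3 and WT 4 were the lowest of all 10 libraries, and the remaining WT libraries lay within the ARSL KO range. The difference of 0.12 (SE 0.15, unadjusted 95% interval -0.20 to 0.45, limma adjusted p = 0.736) turned to -0.09 without the 3 libraries (limma adjusted p = 0.762).

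The glypicans followed the WT 3 and WT 4 libraries more than the genotype. Gpc1, which binds fibroblast growth factors through its heparan sulfate, had 1862, 1762, 1655, 2268 and 1443 normalised reads in ARSL KO 1 to 5. In WT 1 to 5 it had 1739, 1795, 2611, 2759 and 2200. The highest ARSL KO value was that of library 4, and the WT libraries 3 and 4 were above all others. The difference was -0.29 (SE 0.148, unadjusted 95% interval -0.61 to 0.03, limma adjusted p = 0.413), and -0.18 without the 3 libraries (limma adjusted p = 0.378).

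Gpc4, a glypican of many developing tissues, had the widest spread relative to its mean of the 7 genes in WT. It had 37.57, 49.96, 25.85, 40.01 and 38.56 normalised reads in ARSL KO 1 to 5, and 22.66, 24.2, 65.65, 60.23 and 32.77 in WT 1 to 5. WT 3 and WT 4 were the highest of all libraries, at 2.37 times the mean of the other WT libraries, and the groups overlapped. The coefficient of variation was 22.3% in ARSL KO and 49.6% in WT. The difference was -0.01 (SE 0.17, unadjusted 95% interval -0.38 to 0.35, limma adjusted p = 0.982) and 0.26 without the 3 libraries (limma adjusted p = 0.37), so its sign depended on them.

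WT 3 and WT 4 lay outside the range of WT 1, 2 and 5 for all 6 members other than Cspg4. Sdc2, Sdc4, Gpc1 and Gpc4 were higher in them, by 0.27, 0.43, 0.49 and 0.71 on the log2-like scale, and Sdc1 and Sdc3 were lower, with gaps of -0.37 and -0.56. These gaps between WT libraries exceeded the difference between genotypes over all libraries for Sdc1, Sdc3, Sdc4, Gpc1 and Gpc4, but not for Sdc2. That difference includes WT 3 and WT 4. Without the 3 libraries it was 0.53 for Sdc4, above its gap, and -0.25 for Sdc2, smaller in size than its gap. For Cspg4 the gap was 0.01, against a difference of 2.12 between genotypes.

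**Figure D4:**
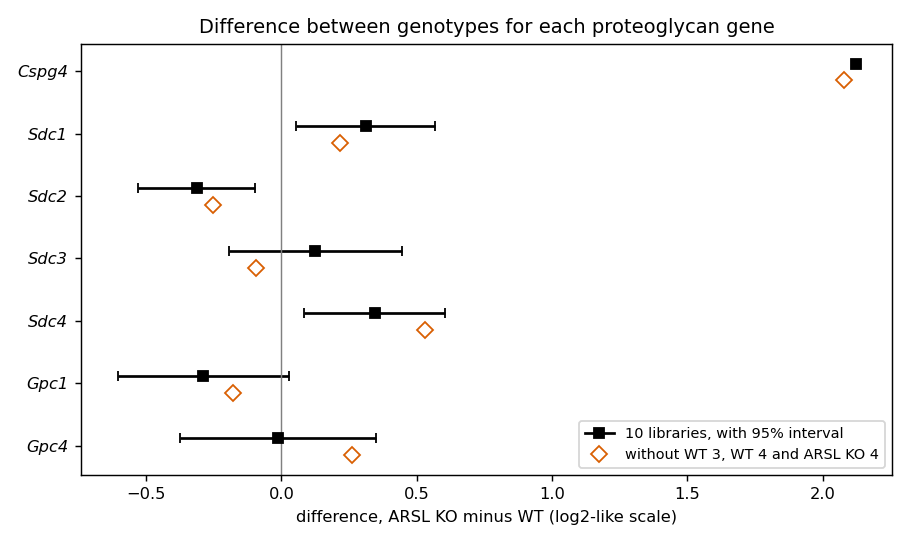
Difference ARSL KO minus WT on the log2-like scale (horizontal axis) for each gene; squares use all 10 libraries, with unadjusted 95% intervals from limma except for Cspg4, and open diamonds leave out WT 3, WT 4 and ARSL KO 4. Cspg4 is at 2.12 and 2.08, Sdc4 moves to 0.53, and Sdc3 and Gpc4 change sign.

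Among 12 other genes whose products can carry such chains at the cell surface, 5 were tested and 1 passed, where 1.14% of all genes did. Nrp1, a co-receptor for semaphorins and VEGF, fell by 0.85 (SE 0.138, limma adjusted p = 0.00832). It had 11.8, 12, 8.31, 13.7 and 5.38 normalised reads in ARSL KO 1 to 5, and 31.4, 25.2, 58, 50.7 and 33.8 in WT 1 to 5. The groups did not overlap, against 4.26% of all tested genes in either direction. WT 3 and WT 4 were highest, and the ARSL KO libraries held only 6 to 14 reads each. Its ARSL KO mean of 10.2 normalised reads was under the filter of 10.7, and it was tested because of its WT mean of 39.8, so a gene of this kind had to differ to be tested at all. Its relative Nrp2 had 10.8 to 33.2 normalised reads in ARSL KO and 33.1 to 66.9 in WT, where ARSL KO 4 just overlapped WT 1. Nrp2 differed by -0.61 with all libraries (limma adjusted p = 0.0639). Without the 3 libraries Nrp2 fell by 0.58 (limma adjusted p = 0.0127), where 3.56% of all genes passed. Nrp2 was named after its values were seen. Tgfbr3 (betaglycan), App and Aplp2 did not pass with or without the 3 libraries. The median difference of the 5 was -0.17.

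Of 17 ligands and partners of NG2, 9 were tested and 1 passed, where 1.14% of all genes did. At an unadjusted p under 0.05 there were 3 of the 9 (against 13.5% of all genes), and limma-voom called 1 (against 0.949%). Col6a2, a chain of collagen VI, to which NG2 binds, fell by 1.11 (SE 0.21, limma adjusted p = 0.0184). It had 585.1, 498.5, 418.2, 764.1 and 427.8 normalised reads in ARSL KO 1 to 5, and 844.6, 815.9, 1687, 1639 and 1215 in WT 1 to 5. All ARSL KO values lay below all WT values, with ARSL KO 4 nearest to them, where 4.26% of all tested genes had groups that do not overlap. Without the 3 libraries it fell by 0.92 (limma adjusted p = 1.54e-05). Its call was lost without ARSL KO 2, 3 or 5, with an adjusted p of up to 0.0752. Col6a3, another chain, averaged 71.8 ± 22.9 in ARSL KO and 141.2 ± 64.6 in WT and did not pass (SD, n = 5 each; limma adjusted p = 0.192). The integrin subunit Itgb1, the galectin Lgals3 and the PDZ protein Mpdz, partners of NG2 at the membrane, differed by -0.10, -0.05 and 0.09 and did not pass. Pdgfa, of the same list, had 39.5 to 51.5 normalised reads in ARSL KO and 60.2 to 68 in WT. Its groups did not overlap, against 4.26% of all genes. Its difference of -0.32 did not pass with all libraries or without the 3 (limma adjusted p = 0.12 and 0.0925). Pdgfa was named after its values were seen. The median difference of the 9 was -0.10.

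**Figure D5:**
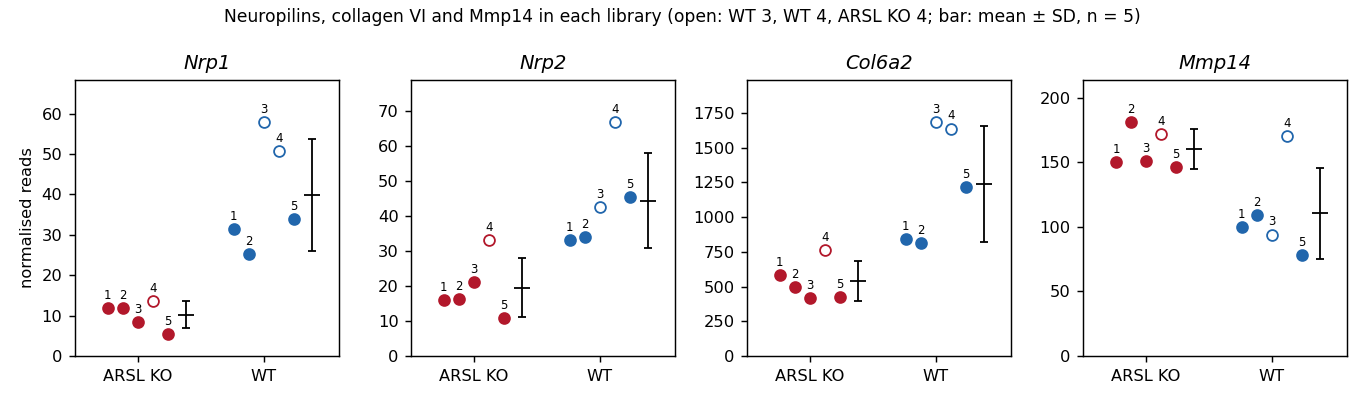
Normalised reads (vertical axis, linear from 0) of Nrp1, Nrp2, Col6a2 and Mmp14 in each ARSL KO and WT library; numbers are replicates, open circles are WT 3, WT 4 and ARSL KO 4, and bars are mean ± SD (n = 5). Nrp1 and Col6a2 do not overlap between genotypes, against 4.26% of all tested genes in either direction, and Mmp14 overlaps through WT 4 at 170.2.

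Among enzymes that shed core proteins or trim their chains, and their inhibitor Timp3, 8 of 17 were tested and 0 passed (limma; 3 at an unadjusted p under 0.05, and 0 by limma-voom). The median difference was 0.11. Mmp14, a membrane-bound metalloprotease that can cleave syndecans, had 150.3, 181.4, 151.4, 171.8 and 146.2 normalised reads in ARSL KO 1 to 5. In WT 1 to 5 it had 100.2, 109.4, 94.09, 170.2 and 78.22. WT 4 was the 1 WT library inside the ARSL KO range. The difference was 0.45 with all libraries (limma adjusted p = 0.152). Without the 3 libraries Mmp14 rose by 0.55 (limma adjusted p = 0.0044), where 3.56% of all genes passed. Mmp14 was named after its values were seen. Adam17 and Adam10, the main shedding enzymes of the ADAM family, differed by 0.27 and -0.22 and did not pass (limma adjusted p = 0.246 and 0.396). Timp3 had the smallest p of the list, with a difference of -0.47 (limma adjusted p = 0.14).

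Of 13 proteins that bind or link syndecan tails, 10 were tested and 0 passed (limma, against 1.14% of all genes). At an unadjusted p under 0.05 there was 1 (against 13.5%), limma-voom called 0 (against 0.949%), and the median difference was -0.10. The smallest p was that of Nf2 (merlin), a linker of the membrane to actin, with a difference of -0.29 (limma adjusted p = 0.315). Sdcbp (syntenin), the PDZ protein of syndecan tails, averaged 703.3 ± 61 normalised reads in ARSL KO and 711.4 ± 116 in WT (SD, n = 5 each; limma adjusted p = 0.986). Ezr (ezrin), a linker to actin, did not pass with all libraries (limma adjusted p = 0.767). Without the 3 libraries Ezr fell by 0.44 (limma adjusted p = 0.0474), where 3.56% of all genes passed. Sdcbp and Ezr were named after their values were seen. Of 8 genes that build the GPI anchor or attach it to proteins such as glypicans, 5 were tested. Of these 0 passed (limma, against 1.14% of all genes). At an unadjusted p under 0.05 there was 1 (against 13.5%), limma-voom called 0 (against 0.949%), and the median difference was -0.05. The smallest p was that of Pigt, with a difference of -0.38 (limma adjusted p = 0.264).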

How the data were processed

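RNA from 5 ARSL KO and 5 WT libraries was sequenced by a company as digital mRNA-seq, per the labels' protocols. The submitters' processing notes name bcl2fastq, STAR 2.7.11a, HTSeq and the rat build rn6. The authors deposited 1 table of log2-like, variance-stabilized values, normalized for library size; the sources used here do not name the tool, the gene filter or the use of strand. The minimum, 4.42, is that of a count of 0. Inverting the transformation put 100% of values on whole reads (tolerance 0.001 reads), with at least 30 reads per listed gene.

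The 8431 genes whose mean exceeded that minimum by 1 or more (10.7 normalised reads) were tested with limma 3.58.1 in R 4.3.3, with an intensity trend, two-sided, with Benjamini-Hochberg adjustment. The fit was also run on simulated counts, drawn independently for each library. These held no part shared by WT 3, WT 4 and ARSL KO 4, so the effect of such a part on the fit was not tested. Pairs of libraries of a group differed by more than sampling noise (chi-square per degree of freedom at least 1.85), so all 10 were kept. This does not show that the libraries came from separate cultures. The measure was 1.85 for WT 1 and WT 2, 2.37 for WT 3 and WT 4 and 2.19 for ARSL KO 1 and 2. It was 20.7 for WT 1 and WT 3, so the libraries of a group were not equally far apart.

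The 10 symbols and 11 further lists (124 entries) were chosen with earlier results of these data known. Named genes were the members, up to 2 called rises and falls per list or else the smallest p, and the 5 nearest profiles; other genes were named after their values were seen. Normalised reads are not scaled by transcript length, so levels are not compared between genes. Sequences came from RefSeq, where 5 of the 7 members matched by symbol. Figures were drawn with matplotlib 3.10.9. Alternatives were the replicate number as a block, testing all rows, a stricter filter (2 above the minimum), median centring, quantile normalization, no intensity trend, limma-voom, and leaving out each library or WT 3, WT 4 and ARSL KO 4 together.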

Additional observations from a re-analysis of the deposited data

How the results depend on the processing

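Over 18 alternatives, Cspg4 kept its direction, with a difference of 2.05 to 2.21 when 1 library was left out. It was 3.41 with limma-voom on the recovered reads, where the scale is a log2 of reads that is not compressed for weakly expressed genes. The call of Nrp1 was kept in every alternative that tested it, with a limma adjusted p of 0.00336 to 0.0368. Its ARSL KO mean was under the filter, which it passed through its WT level, so these repeated calls are no separate support. Of 8431 genes, 96 passed with all libraries, against 60 with the stricter filter, which tests fewer genes and leaves out Gpc4 and Nrp1, 300 without WT 3, WT 4 and ARSL KO 4 together, and 33 to 101 when 1 library was left out. Of the 96, 91 also passed without the 3 libraries. The lowest counts came on leaving out ARSL KO 3 (33), ARSL KO 2 (37), ARSL KO 5 (37), ARSL KO 1 (53) or WT 3 (62). Of the 6 members other than Cspg4, 0 passed when 1 library was left out and 1, Sdc4, passed without the 3 libraries (limma adjusted p of Sdc4 over all settings 0.000871 to 0.435); the cause was not tested. The sign of Gpc4 turned to 0.00069 after quantile normalization, 0.0602 with limma-voom and 0.26 without the 3 libraries, and ranged from -0.11 to 0.10 when 1 library was left out; that of Sdc3 turned to -0.0943 without the 3 libraries. Leaving out ARSL KO 1, 2, 3 or 5 ended the call of Col11a1 (adjusted p of up to 0.0834), and leaving out ARSL KO 2, 3 or 5 that of Col6a2.

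With the replicate number as a block, 136 genes and 0 of the 6 members passed. Deviations of same-numbered libraries correlated at -0.29 to 0.59, and not every library correlated best with its own number, so the numbers were not taken as pairs. Weakly read genes such as Cspg4 in WT, Gpc4 and Nrp1 are limited by depth. A p that misses the threshold does not show that a member did not differ.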

Other observations

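Of 17 genes for proteins of the basement membrane and of the pericellular matrix that bind perlecan or stand beside it, 8 were tested and 0 passed (limma; 5 at an unadjusted p under 0.05, against 13.5% of all genes, and 0 by limma-voom). Of the 8 differences 0 were positive, against 52.1% of all genes, with a median of -0.32. Without WT 3, WT 4 and ARSL KO 4 the median was -0.16 and 1, that of Prelp, was positive. The summed level of the 10 genes with a row was 6929 to 10050 normalised reads in ARSL KO, against 14680 and 14220 in WT 3 and WT 4 and 6932 to 7972 in the other WT libraries. Most of this sum was Prelp, with means of 7006 in ARSL KO and 8529 in WT, so it says little about the other genes. Lama5, a laminin chain, had the smallest p (difference -0.41, limma adjusted p = 0.0906), with 5.43 to 14 normalised reads in ARSL KO and 17.4 to 24.2 in WT. Its ARSL KO mean of 10.4 was under the filter of 10.7, which it passed through its WT level. Lamc1, a laminin chain, differed by -0.50 with all libraries (limma adjusted p = 0.161). Without the 3 libraries Lamc1 fell by 0.46 (limma adjusted p = 0.0306), where 3.56% of all genes passed. Agrn (agrin), itself a heparan sulfate proteoglycan, had 41.6 ± 4.63 normalised reads in ARSL KO and 59 ± 15.7 in WT and did not pass (SD, n = 5 each; limma adjusted p = 0.316). Fbln2, a fibulin, was under the filter, with 0 to 2 reads per ARSL KO library and 6 to 18 per WT library. Lamc1 and Fbln2 were named after their values were seen.

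Of the 12 tested chondrocyte markers, Col11a1, a chain of collagen XI, fell by 1.16 (limma adjusted p = 0.0207) and 11 did not pass. Of all genes 1.14% passed, and the median of the 12 was -0.08. Without the 3 libraries Col11a1 fell by 0.85 and Col9a2, a chain of collagen IX, rose by 0.33 (limma adjusted p = 1.45e-06 and 0.0483), with a median of 0.19. Of all genes 3.56% passed then.

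The tested genes nearest to Cspg4 in the RefSeq order of the GRCr8 assembly did not share its difference. Genes that were not tested were skipped in this order. Of the 10 nearest tested genes, 5 on each side, 0 passed with all libraries and 0 without the 3 (limma, against 1.14% and 3.56% of all genes). Their differences ran from -0.35 for Cimap1c to 0.15 for Sin3a. The nearest tested gene on each side, Cimap1c and Snx33, averaged 10.9 and 20.9 normalised reads in ARSL KO and 20.4 and 18.4 in WT.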
